A study of Mus musculus with 4 samples.

Results

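Immunoglobulin variable (V) segments were followed with Affymetrix arrays in the caecum of mice. The members were the probe sets whose annotation gave a single gene symbol beginning with Ighv, Igkv or Iglv, and 19 of 41345 probe sets met this rule. They stood for 17 genes, of which 3 were heavy chain segments, 13 kappa light chain segments and 1 a lambda light chain segment. All 17 were V segments in the GRCm38.p6 gene table of RefSeq, where the heavy, kappa and lambda members lie on chromosomes 12, 6 and 16. The same table lists 225 V segments (120 heavy, 102 kappa and 3 lambda), so the members cover a small part of the repertoire, and the remaining segments were not analysed here under a symbol of their own.

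All mice were C57Bl/6 animals aged 21 weeks fed a diet from which n-3 polyunsaturated fatty acids had been depleted. The 4 groups were apoE knockout (KO) with prebiotics, apoE KO without prebiotics, wild type (WT) with prebiotics and WT without prebiotics, and the prebiotic (Orafti P95, an oligofructose preparation) was supplied for the final 15 days, 250 mg a day to each mouse. Each group was 1 array hybridised with a pool of RNA from 6 mice, selected by RNA quality, so the values are unreplicated within a group and hold no information on variation between animals. For each of the 2 WT arrays, the description contradicts the diet that 3 other label fields give, so WT arrays are named here by their titles. Apoe itself had log2 values of 3.13 and 2.83 on the KO arrays with and without prebiotics, against 4.09 and 3.90 on the WT arrays titled with and without, and the KO values were the lower ones.

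An antibody heavy or light chain is built when a developing B cell joins 1 V segment to a joining segment (with a diversity segment in the heavy chain), and each mature B cell clone carries its own choice. In the gut wall most antibody is made by plasma cells, which secrete dimeric IgA that epithelial cells carry into the lumen. A V segment signal from tissue therefore reports how much RNA of the antibodies using that segment, or a close relative, was present. V segments of a family are similar in sequence, so the copy behind a signal is uncertain. In such bulk RNA, fewer antibody-producing cells and less RNA per cell cannot be told apart.

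Values are log2 signals after RMA, the authors' background correction, normalisation and summary. The median signal of an array was 2.92 to 2.93, and a value below the array median plus 0.5, that is below 3.42 to 3.43, is called near background. Of the 19 probe sets, 11 were above this limit on all 4 arrays, 6 were near background on all 4, and 2 crossed it. The signal of one probe set cannot be set against that of another, since probes differ in affinity, so the comparisons below are within a probe set.

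**Figure D1:**
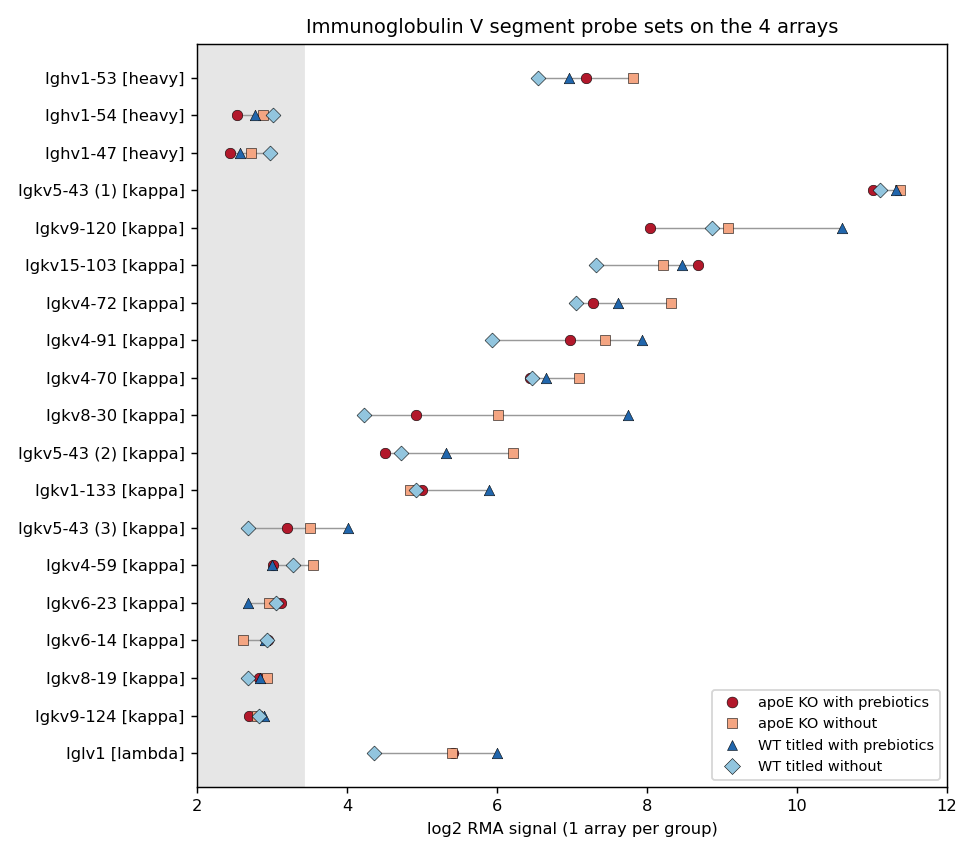
Log2 RMA signal (horizontal axis) of the 19 V segment probe sets (rows, with the chain in brackets and the 3 Igkv5-43 probe sets numbered) on the 4 arrays, 1 pooled sample each; the grey band marks values near background. Igkv8-30 spans 4.22 to 7.74, while 6 probe sets stay within the band on all 4 arrays.

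Among heavy chain segments, Ighv1-53 was the only one of 3 above background. It had 7.18 and 7.81 on the KO arrays with and without prebiotics, against 6.96 and 6.54 on the WT arrays titled with and without. Both KO values lay above both WT values. Ighv1-54 and Ighv1-47, segments of the same family, were near background on all 4 arrays, with values of 2.43 to 3.01, and their differences are not interpretable.

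Among light chain segments, 9 of 14 genes were above background on all 4 arrays. The kappa segment with the widest range was Igkv8-30, with 4.92 and 6.02 on the KO arrays with and without prebiotics, against 7.74 and 4.22 on the WT arrays titled with and without. Its values ran across 3.52 log2 units, and both extremes were WT arrays. Igkv9-120 had 8.04 and 9.08 on the KO arrays with and without prebiotics, against 10.60 and 8.86 on the WT arrays titled with and without. Igkv4-91 had 6.96 and 7.44 on the KO arrays with and without prebiotics, against 7.94 and 5.93 on the WT arrays titled with and without. For these 3 segments the WT array titled with prebiotics was the top one, and the KO and WT values overlapped.

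The lambda segment Iglv1 belongs to the minor light chain class of mice. It had 5.41 and 5.40 on the KO arrays with and without prebiotics, against 5.99 and 4.35 on the WT arrays titled with and without, so the KO arrays lay between the WT arrays. Igkv15-103 had 8.68 and 8.22 on the KO arrays with and without prebiotics, against 8.47 and 7.31 on the WT arrays titled with and without. In each genotype its array with prebiotics (WT by title) was the upper one. Igkv1-133 had 4.998 and 4.84 on the KO arrays with and without prebiotics, against 5.89 and 4.92 on the WT arrays titled with and without, with only the WT array titled with prebiotics apart from the rest.

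The Igkv4 family had 4 members, including Igkv4-91. Igkv4-72 had 7.28 and 8.31 on the KO arrays with and without prebiotics, against 7.61 and 7.06 on the WT arrays titled with and without. Igkv4-70 had 6.44 and 7.09 on the KO arrays with and without prebiotics, against 6.65 and 6.46 on the WT arrays titled with and without. For both segments the KO array without prebiotics was the top one. In the RefSeq table they lie close together, with 2 other annotated segments between them. Igkv4-59 had 3.01 and 3.55 on the KO arrays with and without prebiotics, against 2.99 and 3.27 on the WT arrays titled with and without, and was above background only on the KO array without prebiotics.

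Igkv5-43 was the one member with several probe sets, and its 3 probe sets disagreed. The first, which has the largest mean signal and stands for the gene in the tests, had 11.01 and 11.37 on the KO arrays with and without prebiotics, against 11.31 and 11.10 on the WT arrays titled with and without, a range of 0.36. The second had 4.51 and 6.21 on the KO arrays with and without prebiotics, against 5.32 and 4.71 on the WT arrays titled with and without. The third had 3.19 and 3.50 on the KO arrays with and without prebiotics, against 4.004 and 2.67 on the WT arrays titled with and without. All 3 were lower with prebiotics in KO and higher with them in WT by title, but by differing amounts. Whether the annotation ties each of these probe sets to this 1 segment alone was not tested. Igkv6-23, Igkv6-14, Igkv8-19 and Igkv9-124 were near background on all 4 arrays, with values of 2.61 to 3.11.

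Over the 11 probe sets above background on all arrays, the top array was the KO array with prebiotics in 1, the KO array without prebiotics in 5 and the WT array titled with prebiotics in 5. The bottom array was the KO array with prebiotics in 4, the KO array without in 1 and the WT array titled without prebiotics in 6. The order of the arrays thus differed between members.

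The first comparison asked how the segments differed with prebiotics in KO caecum. Light chain segments were mostly lower on the KO prebiotic array. Igkv8-30 was lower by a log2 difference of -1.10, Igkv9-120 by -1.04 and Igkv4-72 by -1.03. Igkv4-70 (-0.65), the heavy chain segment Ighv1-53 (-0.63), Igkv4-59 (-0.54), Igkv4-91 (-0.47) and Igkv5-43 (-0.36) were lower by less than 2-fold. For Igkv5-43 the amount depended on the probe set, being -1.70 for the second and -0.31 for the third, and -0.79 as the mean over its probe sets. Igkv15-103 (0.46) and Igkv1-133 (0.16) were higher, and Iglv1 (0.01) was level.

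For counts, a gene had to reach the median signal of single-symbol probe sets (2.99 to 3.01) on at least 1 array compared. In the KO pair 12 of the 17 members did so, of which 3 were at least 2-fold lower, where 0.139% of 12216 genes were. The number at least 2-fold higher was 0, where 0.475% of all genes were. Over all members with no filter, the median was -0.24 for the 14 light chain segments, with 9 below 0, and -0.35 for the 3 heavy chain segments, with all 3 below 0 and 2 of them near background. The median of all 22180 genes was 0.004. With 1 array per group there is no test. A threshold of 1.5-fold gave 5 lower and 0 higher, but the share of all genes at that threshold was not counted.

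All 9 light chain segments above background were higher in WT with prebiotics than without, by title. Igkv8-30 was higher by a log2 difference of 3.52, or 11.5-fold, the largest of 12223 genes measured in the pair. Igkv4-91 was higher by 2.01 (4.02-fold), Igkv9-120 by 1.74 (3.33-fold), Iglv1 by 1.64 (3.12-fold), Igkv15-103 by 1.15 (2.23-fold) and Igkv1-133 by 0.98. Igkv4-91, Igkv9-120 and Iglv1 held ranks 6, 10 and 13 among these genes. The heavy chain segment Ighv1-53 was higher by 0.42.

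In this pair 13 of the 17 members reached the filter, of which 5 were at least 2-fold higher, where 0.335% of all genes were, and 0 at least 2-fold lower, where 0.180% were. The median over all 14 light chain segments was 0.38, with 11 above 0, and 0.63 when the 3 probe sets of Igkv5-43 were averaged. The median over the 3 heavy chain segments was -0.24, set by the 2 near background, and that of all genes 0.003. If the descriptions rather than the titles give the diet, each of these signs turns.

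**Figure D2:**
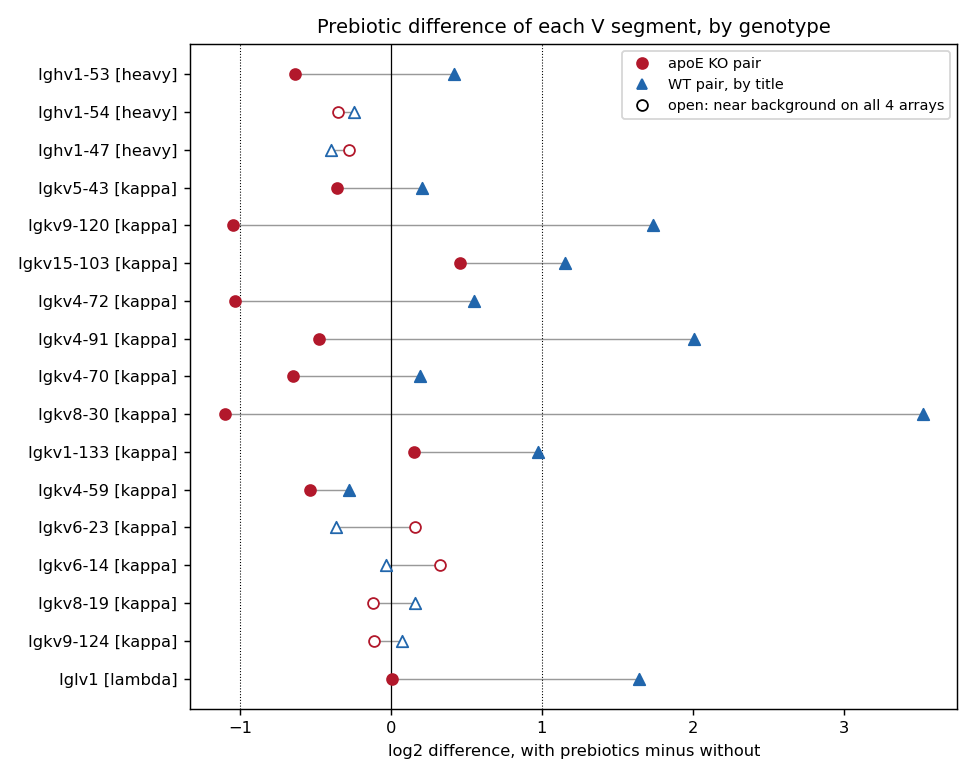
Log2 difference with prebiotics minus without (horizontal axis) of the 17 V segment genes (rows) in the apoE KO pair (red circles) and in the WT pair by title (blue triangles), 1 array per group; dotted lines mark 2-fold and open symbols genes near background on all 4 arrays. Igkv8-30, Igkv9-120 and Igkv4-72 lie at -1.03 or lower in KO, and all filled WT symbols but that of Igkv4-59 lie above 0.

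No array is common to the KO pair and the WT pair, so their differences can be set against each other. For all 9 light chain segments above background, the prebiotic difference was lower in KO than in WT by title, by between 0.56 and 4.62 log2 units. The KO difference minus the WT difference was -4.62 for Igkv8-30, -2.78 for Igkv9-120 and -2.48 for Igkv4-91, the 3 lowest values of 11356 genes measured in both pairs. It was -1.63 for Iglv1, -1.58 for Igkv4-72 and -1.05 for the heavy chain segment Ighv1-53. The value nearest 0 was that of Igkv5-43 (-0.56), whose other 2 probe sets had -2.30 and -1.65.

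Of the 12 members measured in both pairs, 6 had such a value of -1 or lower, where 0.379% of all genes did, and 0 had 1 or higher, where 0.405% did. The difference of differences has no residual degree of freedom, so it has no test. A higher WT value together with a lower KO value was seen in 7 of these 12 members and in 17.8% of all genes. The reverse held in 1 member, Igkv6-23, which is near background, and in 21.5% of all genes. With at least 2-fold in each direction, 2 genes met the first pattern, 0.0176% of all genes, and both were members (Igkv8-30 and Igkv9-120). In the order of the RefSeq table these 2 kappa segments are not neighbours, with 110 of 162 annotated kappa segments and pseudogenes between them.

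These statements rest on the WT titles. With the WT pair exchanged, the difference of differences was 2.42 for Igkv8-30, 1.53 for Igkv4-91, 1.65 for Iglv1 and 0.69 for Igkv9-120. The prebiotic differences of Igkv8-30, Igkv9-120 and Igkv4-91 would then be negative in both genotypes.

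**Figure D3:**
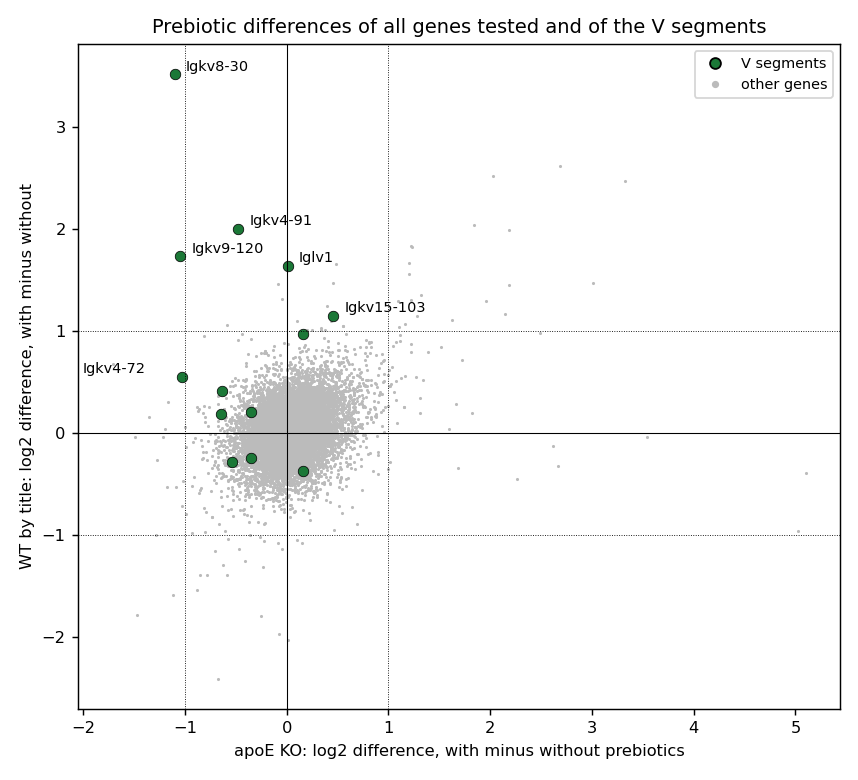
Log2 difference with prebiotics minus without in apoE KO (horizontal axis) and in WT by title (vertical axis). Points are the 13083 genes that reached the filter on at least 1 of the 4 arrays (grey), with the 13 V segments among them in green. Dotted lines mark 2-fold. Igkv8-30, Igkv9-120 and Igkv4-91 lie at the upper left, at -1.10, -1.04 and -0.47 in KO and 3.52, 1.74 and 2.01 in WT.

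A model over the 4 arrays with genotype and prebiotic terms estimated the prebiotic difference averaged over both genotypes, with WT by title. It does not require that both genotypes moved alike. It had 1 residual degree of freedom, which is the disagreement between the prebiotic differences of KO and WT. Its p-values rest on that disagreement and on the variance prior. They measure no spread between like pools or between animals. Igkv15-103 rose with prebiotics by 0.81 (SE 0.15, limma adjusted p = 0.035 over 13083 genes), being higher by 0.46 in KO and by 1.15 in WT. It was the 1 member called of 13 tested, where 0.994% of all genes were called higher, and 0 were called lower, where 0.260% of all genes were. Without the trend in the variance prior its limma adjusted p was 0.18, without the filter it was 0.091, and with the WT pair exchanged its value was -0.35 and limma called 0 of all genes.

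At an unadjusted p under 0.05, 3 members were higher, where 9.13% of all genes were: Igkv15-103, Igkv1-133 (0.57, limma adjusted p = 0.21) and Iglv1 (0.83, limma adjusted p = 0.25). The Iglv1 value came from WT by title (1.64), with a KO difference of 0.01. At the same unadjusted threshold 2 were lower, where 4.62% of all genes were: Igkv4-59 (-0.41, limma adjusted p = 0.22) and Ighv1-54 (-0.30, limma adjusted p = 0.36). Ighv1-54 was near background throughout and reached the filter only on the WT array titled without prebiotics (3.01), which favours a lower sign. Igkv4-59 was above background only on the KO array without prebiotics. The lower count is therefore not read as a result. Igkv8-30 had the widest error of the members, with 1.21 (SE 0.77, limma adjusted p = 0.56), its difference having opposite signs in the genotypes.

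The genotype comparison set the 2 KO arrays against the 2 WT arrays, which does not depend on the WT diet labels. The fit held no diet term, so the difference between the 2 arrays of a genotype, which differ in diet, counted as error. In limma 0 of 13 members were called in either direction, as were 0% of all genes. At an unadjusted p under 0.05, 1 member was higher, where 1.92% of all genes were, and 0 were lower, where 1.37% were. The 1 member was the heavy chain segment Ighv1-53, with a KO minus WT difference of 0.74 (SE 0.24, limma adjusted p = 0.999), rank 22 of 13083 genes. It was also the 1 member of 13 whose KO arrays both lay above both WT arrays, where 16.2% of all genes did, and 0 members lay wholly below, where 14.0% of all genes did. The share of members without overlap was not above that of all genes. Without each array in turn its value lay between 0.43 and 1.06.

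Igkv9-120 had a KO minus WT difference of -1.18 (SE 0.54, limma adjusted p = 0.999), rank 3 from the bottom of 13083 genes. The KO and WT values overlapped, and the value was -0.31 without the WT array titled with prebiotics, -2.04 without the WT array titled without them and -1.70 when the KO array without prebiotics was left out. Igkv8-30 had -0.52 (SE 0.98) and Igkv1-133 had -0.48 (SE 0.29). Without the WT array titled with prebiotics these were 1.25 and 0.0043. On the upper side Igkv15-103 had 0.56 (SE 0.35), Igkv4-72 0.47, Igkv4-91 0.27, Iglv1 0.23 and Igkv4-70 0.21. Without the WT array titled without prebiotics Igkv15-103 was -0.021, Igkv4-91 -0.73, Iglv1 -0.59, Igkv4-72 0.19 and Igkv4-70 0.11. Without the KO array kept without prebiotics Igkv4-72 was -0.050 and Igkv4-70 -0.12. The light chain median was 0.14 over 14 segments, with 8 above 0, and the heavy chain median -0.18 over 3, beside -0.001 for all genes.

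The genotype difference of most light chain segments had opposite signs on the 2 diets with WT by title, which was not tested. Of the 9 segments above background, 8 were lower in KO than in WT among the arrays with prebiotics (WT by title), with a median of -0.58. Among the arrays without prebiotics 8 of 9 were higher in KO, with a median of 0.90. Igkv8-30 had KO minus WT differences of -2.83 with prebiotics and 1.79 without, and Igkv4-91 had -0.97 and 1.51. Exceptions were Igkv15-103, higher in KO in both (0.21 and 0.90), and Igkv1-133, lower in both (-0.89 and -0.07). With the WT pair exchanged the counts turned: 3 of 9 were lower in KO with prebiotics (median 0.23), and 3 of 9 were higher in KO without them (median -0.50). For Igkv8-30 the KO minus WT differences were then 0.70 with prebiotics and -1.73 without. This is the same contrast as the difference of prebiotic differences, seen from the other side, and it adds no separate evidence.

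**Figure D4:**
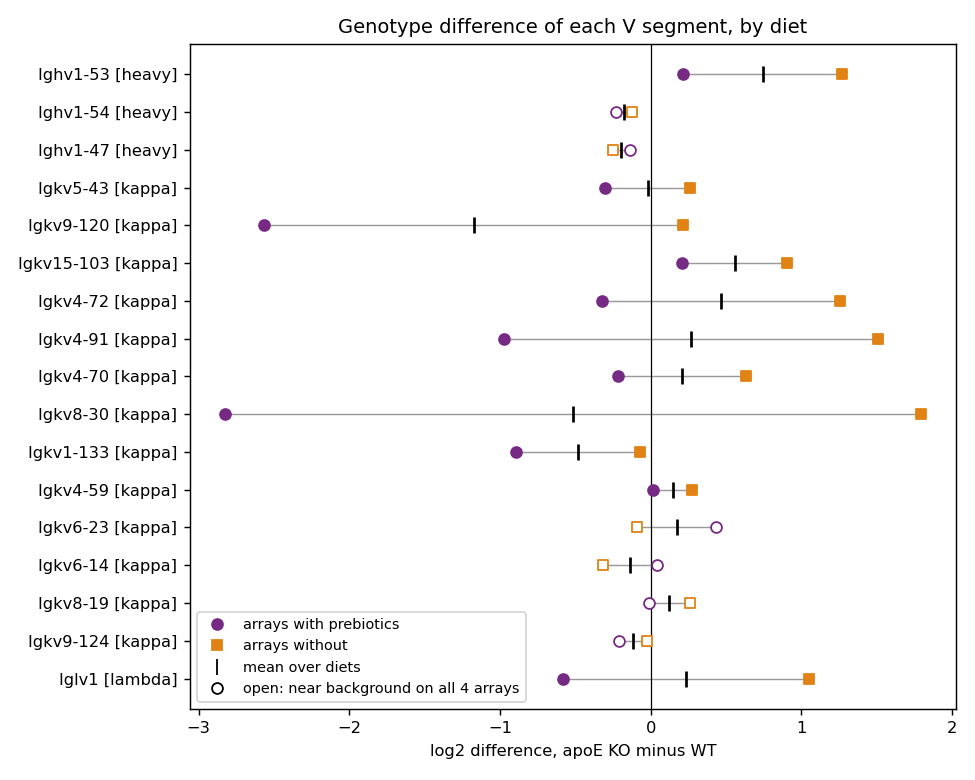
Log2 difference apoE KO minus WT (horizontal axis) of the 17 V segment genes (rows) for arrays with prebiotics (purple circles), arrays without (orange squares) and the mean over diets (black ticks), with WT by title; open symbols are genes near background on all 4 arrays. For Igkv8-30 the values are -2.83 and 1.79, and for Ighv1-53 both are above 0.

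Other parts of the antibody were set beside the V segments. Jchain, which joins IgA and IgM units into polymers, had 7.75 and 7.86 on the KO arrays with and without prebiotics, against 8.26 and 7.56 on the WT arrays titled with and without. Its differences were -0.11 in KO and 0.70 in WT by title. Igkj1, a kappa joining segment, had 7.08 and 7.89 on the KO arrays with and without prebiotics, against 7.92 and 6.96 on the WT arrays titled with and without. Its differences were -0.81 and 0.95, so Jchain and Igkj1 had the signs of most light chain V segments. Set against Jchain, the WT difference of Igkv8-30 was larger by 2.82, that of Igkv4-91 by 1.30, that of Igkv9-120 by 1.03 and that of Iglv1 by 0.94. In the KO pair the difference minus that of Jchain was -0.99 for Igkv8-30, -0.94 for Igkv9-120, -0.92 for Igkv4-72 and 0.57 for Igkv15-103. Of the 10 segments above background on all arrays, 6 exceeded Jchain in the WT pair and 7 were below it in the KO pair.

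Of the 14 fixed genes for constant regions and the J chain, 3 had a probe set with a single symbol, and limma called 0 of them in either model. Ighm, the heavy chain constant region of IgM, stood at 10.39 and 10.71 on the KO arrays with and without prebiotics, against 10.97 and 10.58 on the WT arrays titled with and without, by its representative probe set. Another probe set named Ighm had 5.38 and 7.29 on the KO arrays with and without prebiotics, against 7.46 and 7.39 on the WT arrays titled with and without, a KO difference of -1.91. One more had 5.01 and 6.49 on the KO arrays with and without prebiotics, against 4.83 and 5.04 on the WT arrays titled with and without. These 2 had the largest falls in KO. The other probe sets named Ighm had KO differences of 0.06, 0.15, -0.11 and 0.25, the last near background on all 4 arrays. The probe sets of Ighm thus disagreed with each other. Ighg3, the IgG3 constant region, was above background only on the WT array titled with prebiotics (3.52), by its representative probe set. Its other probe set was near background on all 4 arrays.

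A further 5 probe sets name a V segment together with other genes and were kept apart, since their signal cannot be given to 1 of them. Their KO prebiotic differences lay between -0.56 and -0.09, and their WT differences by title between 0.27 and 1.13. All 5 were lower in KO and higher in WT by title. Of the 5, 3 name a kappa V segment. The probe set for Igkv9-124 and Igkv4-70 had 11.40 and 11.54 on the KO arrays with and without prebiotics, against 11.90 and 11.11 on the WT arrays titled with and without. For Igkv4-53, Igkj1 and Igkv6-23 together, the values were 11.71 and 11.84 on the KO arrays with and without prebiotics, against 11.89 and 11.54 on the WT arrays titled with and without. For Igkv1-135 with Ighv1-54 and Ighm, they were 9.78 and 10.08 on the KO arrays with and without prebiotics, against 10.70 and 9.70 on the WT arrays titled with and without. Igkv9-124, Igkv6-23 and Ighv1-54 were near background by their single-symbol probe sets.

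Markers of B cells and plasma cells were read for the cells that carry antibody RNA. In the KO pair 14 of 14 B cell markers were lower with prebiotics (median -0.37), where 10861 of all 22180 genes were. Among them Cd79a, a signalling chain of the B cell receptor, was at -1.36, being near background (3.16) on the KO array with prebiotics. In the WT pair by title 10 of 14 were lower (median -0.09), where 10878 of all 22180 genes were. The other 4 were higher, among them Cd79a (0.16). The summed signal of the B cell list, in log2 units, was 6.78 and 7.30 on the KO arrays with and without prebiotics. On the WT arrays titled with and without it was 7.39 and 7.49. This sum includes many values near background, and Ebf1 was the only marker of the list above background on all 4 arrays. Near background on all 4 arrays were 6 of its members, among them Pax5, a B cell transcription factor, and Blk, a B cell kinase. The part of B cell content in the lower KO values of V segments was not tested.

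Plasma cell markers, 12 on the array, were higher with prebiotics in 8 in KO (median 0.06) and in 9 in WT by title (median 0.24). Of all 22180 genes, 11265 were higher in KO and 11257 in WT by title. The summed signal of the plasma cell markers was 9.10 and 9.06 on the KO arrays with and without prebiotics. On the WT arrays titled with and without it was 9.30 and 8.94. Most of this sum came from Xbp1 and Jchain. Of the 12, 6 were near background on all 4 arrays, 3 were above it on all 4, and 3 were above it on some. Near background throughout were Tnfrsf17, the survival receptor BCMA (2.69 to 2.90), and Mzb1, a chaperone of antibody secretion (2.999 to 3.36). Above it throughout were Sdc1, the plasma cell surface marker CD138 that epithelium also carries (3.71 to 4.04), Jchain, and Xbp1, a secretory transcription factor that gut epithelium also expresses (7.74 to 7.88). Limma called 0 members of the B cell or plasma cell list in either model. The part of plasma cell content in the V segment values was not tested.

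Genes of V segment joining and antibody diversification gave few values above background. Of 9 on the array, 6 were near background on all 4, among them Rag2, part of the recombinase of developing lymphocytes (2.67 to 2.83), and Dntt, which adds bases at the joints (2.54 to 2.71). Of 8 T cell receptor V segments, built by the same joining process, 7 were near background on all 4 arrays, and their median differences were -0.06 in KO and -0.07 in WT by title. All 8 T cell markers on the array were near background as well (medians -0.01 and 0.13). Germinal centre and lymphoid tissue markers, 5 of each on the array, had medians of 0.19 and -0.30 in KO and of -0.03 and -0.23 in WT by title. Of these, 3 germinal centre and 2 lymphoid tissue markers were near background on all 4 arrays. Limma called 0 members of these lists in either model.

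The labelled tissue was checked against 7 epithelial genes. All 7 were above background on all arrays, including Pigr, the receptor that carries IgA across the epithelium, at 11.49 and 11.46 on the KO arrays with and without prebiotics, against 11.41 and 11.33 on the WT arrays titled with and without. With prebiotics, epithelial markers had median differences of 0.04 in KO and 0.06 in WT by title, myeloid markers 0.01 and 0.29, and fibroblast and muscle markers -0.16 and -0.002. Of the fibroblast and muscle list limma called 1 gene higher (Col1a1) and 1 lower (Myh11) with prebiotics. Over all genes 0.994% were called higher and 0.260% lower, with WT by title, and 0 genes with the WT pair exchanged. Between the genotypes, 14 of 14 B cell markers were lower in KO (median -0.23), as were 5 of 5 germinal centre markers (-0.16), 5 of 5 lymphoid tissue markers (-0.26), 6 of 8 T cell markers (-0.09) and 6 of 7 epithelial markers (-0.05). In KO, 6 of 6 fibroblast and muscle markers were higher (0.47), as were 7 of 8 myeloid markers (0.25) and 8 of 12 plasma cell markers (0.02). Limma called 0 of these genes for genotype. Over all 22180 genes, 11190 were lower in KO. Near background on all 4 arrays were 6 B cell, 3 germinal centre, 2 lymphoid tissue, 8 T cell, 1 myeloid and 6 plasma cell markers. The signs of such markers are not interpretable. The part of these lists in the V segment values, for prebiotics or for genotype, was not tested.

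**Figure D5:**
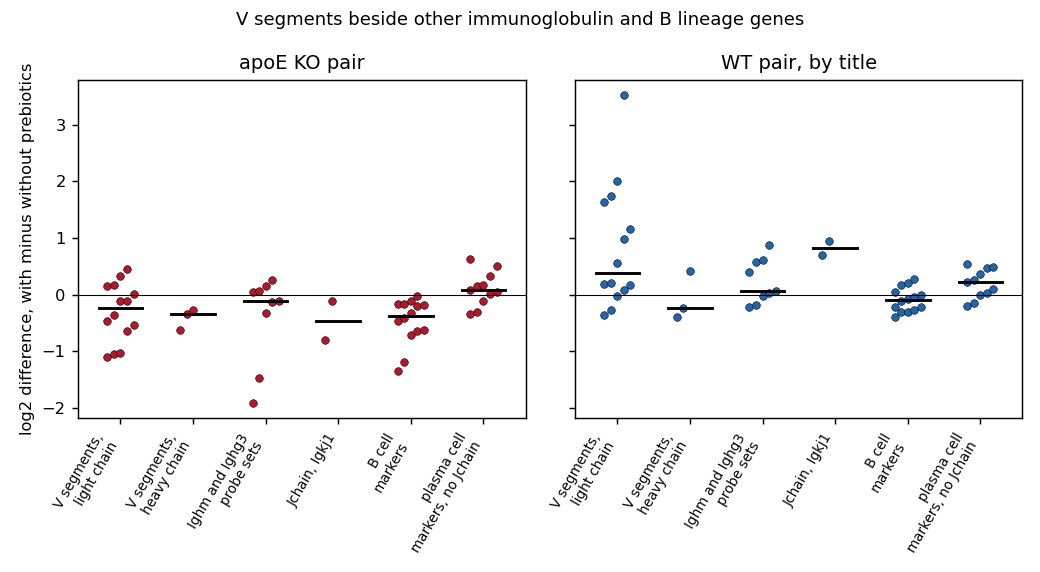
Log2 difference with prebiotics minus without (vertical axis) in the apoE KO pair (left) and in the WT pair by title (right) for light and heavy chain V segment genes, single-symbol probe sets of Ighm and Ighg3, Jchain with Igkj1, and markers of B cells and plasma cells (without Jchain); each point is a gene or probe set and each bar the median of its group. The light chain medians are -0.24 and 0.38, and the B cell medians -0.37 and -0.09.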

How the data were processed

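The authors deposited log2 signals made with Affymetrix Expression Console and RMA, as the submitters' processing notes name them without a version or setting; the log base is taken from RMA. RMA compresses differences near background. Apart from the RefSeq table (GRCm38.p6), the sources used here name no genome build, and coordinates are left out. That table was used for names, chromosomes and gene order, and it held all 17 member genes by gene identifier with 0 symbols changed. No sequence of a member was in the tables used here.

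The members and lists were chosen with earlier results of these data known. For tests, the probe set with the largest mean stood for its gene (22180 genes), and 13083 genes that reached the median of single-symbol probe sets on 1 array or more were fitted with limma 3.58.1 under R 4.3.3 (lmFit, eBayes with trend, two-sided, Benjamini-Hochberg over all genes, called at an adjusted p under 0.05). Of the 17 members 13 reached it, 2 heavy and 11 light. The genotype fit had 2 residual degrees of freedom. Single arrays were compared by log2 difference without a test. The fits were tested on simulated data with the same noise level for every gene and, for genotype, no diet difference. That test therefore does not cover genes of differing variance or a diet difference counted as error. Segments named were the largest differences each way in each comparison, by a fixed number per comparison, among members above background on 1 array or more. The labels do not say whether the pools are independent replicates, and the number of arrays limits the precision. Alternatives were other filters, probe set averaging, cyclic loess, median centring, no trend, diet as a block, arrays left out and the WT pair exchanged.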

Additional observations from a re-analysis of the deposited data

Results flagged for a closer look

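In 3 results the WT pair by title and the KO pair moved in opposite directions, each by 1 array per group, and the difference was not tested. Igkv8-30 was lower by -1.10 with prebiotics in KO and higher by 3.52 in WT, a difference of -4.62. Igkv9-120 was lower by -1.04 in KO and higher by 1.74 in WT, a difference of -2.78. The median over the 14 light chain segments was -0.24 in KO and 0.38 in WT, and the median of their differences was -0.76. With the WT pair exchanged these 3 values were 2.42, 0.69 and 0.17.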

How the results depend on the processing

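With the WT pair exchanged, 0 members were at least 2-fold higher and 5 lower in the WT pair, where 0.180% and 0.335% of all genes were. In the difference of differences 5 were higher and 0 lower, without a count over all genes to set beside it. For prebiotics over both genotypes 0 members were called, as were 0 of all genes. Igkv8-30, Igkv4-91, Igkv9-120, Iglv1 and Igkv15-103 then had WT differences of -3.52, -2.01, -1.74, -1.64 and -1.15, differences of differences were 2.42, 1.53, 0.69 and 1.65 for the first 4, and Igkv15-103 had -0.35 over both genotypes. The WT medians were 0.24 (heavy) and -0.38 (light), and those of the difference of differences -0.59 and 0.17. The WT signs turn by construction. The call of Igkv15-103 was also lost without the filter, with a filter at the 75th percentile and without the trend (0 members called higher in each; the limma adjusted p of Igkv15-103 was 0.091, 0.054 and 0.18), and lay between 0.013 and 0.040 with probe set averaging, cyclic loess, median centring or every probe set on its own, the last chosen after seeing the data. A filter at the 75th percentile, and likewise keeping members at least 1 log2 unit over the array median, removes those near background and gave heavy medians of -0.63 (KO), 0.42 (WT), -1.05 (difference of differences) and 0.74 (genotype), all from Ighv1-53, and light medians of -0.47, 1.15 and -1.58 in the first 3. Averaging probe sets gave a light WT median of 0.63 put the KO difference of Igkv5-43 at -0.79 and turned its genotype difference to 0.11. At 1.5-fold, 5 members were lower in KO, without a count over all genes to set beside it. Without each array in turn, genotype medians ranged from -0.33 to 0.0026 (heavy) and from -0.12 to 0.17 (light). The ranges were -0.20 to 0.16 for Igkv5-43, -2.04 to -0.31 for Igkv9-120, -2.28 to 1.25 for Igkv8-30, -0.12 to 0.53 for Igkv4-70, -0.050 to 0.98 for Igkv4-72, -0.97 to 0.0043 for Igkv1-133, -0.021 to 1.13 for Igkv15-103, -0.73 to 1.27 for Igkv4-91 and -0.59 to 1.05 for Iglv1. With diet as a block limma called 8 genes higher and 4 lower over all genes, with 0 members among them, and 0 genes with the WT pair exchanged as well, a choice made after seeing the data; this fit pairs KO with WT arrays by diet, since the labels carry no replicate numbers. Without 1 array the prebiotic model has no residual degree of freedom, so it was not run. Medians use all members, so dropping the filter leaves them as they are. Values near background limit what 6 of the 19 probe sets can show.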
